A study of Mus musculus with 18 samples.

Results

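The aryl hydrocarbon receptor pathway was followed through 7 genes, chosen by symbol and not by their values: the receptor Ahr, its DNA-binding partners Arnt and Arnt2, the repressor Ahrr, and the target genes Tiparp, Cyp1a1 and Cyp1b1. All 7 symbols had a row in each of the 18 count tables, which hold 23238 symbols in all. The aryl hydrocarbon receptor waits in the cytoplasm in a complex with chaperones such as HSP90 and p23, binds polycyclic aromatic hydrocarbons and other flat ring compounds such as those carried on combustion particles, and then moves to the nucleus. There it pairs with ARNT or its brain-rich relative ARNT2, binds DNA at a short motif, and switches on the cytochrome P450 genes Cyp1a1 and Cyp1b1, which oxidise the same compounds, together with Tiparp and Ahrr, whose products turn the receptor back down. In the brain, Cyp1a1 induction is best known from the vessel wall, and Cyp1b1 is known from vessel-associated and meningeal cells.

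The libraries came from hippocampus and cortex of male C57BL/6 mice, 7 weeks old at the start, that received urban particulate matter (UPM, SRM1648a) or the vehicle PBS through the nose. The groups of each tissue were long-term UPM, given 2 times per week for 3, 8, 12, 16 or 20 weeks (5 libraries), short-term UPM, given daily for 3, 5 or 7 days (3 libraries), and PBS control (1 library). RNA was pooled within each group before 3' mRNA sequencing, so each time point of a tissue is 1 library. Replicates here are libraries that differ in time, and p-values therefore measure the spread between such libraries, not between mice. The number of mice pooled, the time at which controls were taken and whether both tissues came from the same mice are not given in the sources used here. Exposure class goes with age, dosing rhythm and total dose, which cannot be told apart from it.

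Depth was 5.43 to 8.97 M counts per library. Levels are given as CPM, counts relative to the total of the library, after TMM scaling, a correction for differences in composition between libraries. A floor of 3 counts corresponds to 0.335 to 0.552 CPM relative to total counts, without TMM scaling. The labels of tissue held: all 6 hippocampal markers were higher in hippocampus and all 6 cortical markers lower, with marker sums of 330.9 to 816 CPM in hippocampus and 119.6 to 254.7 CPM in cortex for the first list, and 154.6 to 364.1 CPM in hippocampus and 451.5 to 664 CPM in cortex for the second. The libraries fell into 2 sets by the naming of the count columns. The 8 libraries of 3, 5 and 7 days and 3 weeks carried 14.8% to 18.6% of their counts on Rn45s, the ribosomal RNA precursor, and the 10 libraries of control and 8 to 20 weeks carried 7.75% to 12.9%. All short-term libraries belong to the first set and both controls to the second, so tests that rest on these groups are given below with their values inside a set as well. Every ratio to control at 3 days to 3 weeks sets a library of the first set against a control of the second.

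Promoters of the members were read to show where the receptor's recognition core lies. A window of 250 bases before to 50 bases after the start in RefSeq (GRCm38.p6) was available for 6 members. That start lay 0 to 138 bases inside the gene start of the GENCODE annotation for 5 of them, and 9685 bases downstream of it for Cyp1a1, whose window therefore belongs to an internal transcript start of the annotated gene. The core searched was GCGTG on either strand, which reads CACGC on the opposite one, and a longer form TNGCGTG that contains it. Printed here are the 4 genes described as receptor targets, 5' to 3' along the gene, with core matches in capitals.
Ahrr promoter, chr13:74292282-74292581, minus strand: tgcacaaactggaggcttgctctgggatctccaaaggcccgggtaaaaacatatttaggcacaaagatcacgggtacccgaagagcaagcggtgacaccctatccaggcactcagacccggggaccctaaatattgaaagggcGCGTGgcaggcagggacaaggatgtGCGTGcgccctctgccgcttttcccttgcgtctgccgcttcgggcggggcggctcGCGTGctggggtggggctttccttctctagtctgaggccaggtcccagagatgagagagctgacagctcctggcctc
Tiparp promoter, chr3:65528197-65528496, plus strand: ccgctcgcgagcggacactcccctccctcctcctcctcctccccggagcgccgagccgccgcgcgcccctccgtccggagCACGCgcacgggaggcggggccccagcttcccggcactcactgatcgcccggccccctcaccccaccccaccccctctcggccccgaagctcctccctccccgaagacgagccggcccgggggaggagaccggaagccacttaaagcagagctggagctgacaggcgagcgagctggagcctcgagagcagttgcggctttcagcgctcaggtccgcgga
Cyp1a1 promoter, chr9:57697363-57697662, plus strand: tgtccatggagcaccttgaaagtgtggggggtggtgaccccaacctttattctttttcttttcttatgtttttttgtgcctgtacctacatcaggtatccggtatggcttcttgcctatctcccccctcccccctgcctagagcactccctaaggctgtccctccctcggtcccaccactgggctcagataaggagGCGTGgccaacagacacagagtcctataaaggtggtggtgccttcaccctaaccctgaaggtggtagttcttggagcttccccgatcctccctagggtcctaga
Cyp1b1 promoter, chr17:79715012-79715311, minus strand: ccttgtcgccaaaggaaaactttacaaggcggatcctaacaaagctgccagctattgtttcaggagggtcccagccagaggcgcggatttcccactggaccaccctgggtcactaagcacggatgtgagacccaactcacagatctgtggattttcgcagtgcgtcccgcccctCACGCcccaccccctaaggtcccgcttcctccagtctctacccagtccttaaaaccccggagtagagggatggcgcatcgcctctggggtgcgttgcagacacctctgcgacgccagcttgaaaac
The Ahrr window held 3 cores, at -107, -82 and -27 relative to the RefSeq start, and the last of them was the 1 match to the longer form among the members. Cyp1a1 held 1 core at -54. Cyp1b1 held 1 at -76 and Tiparp 1 at -170, both on the opposite strand. The Arnt window held 1 core at -29 and the Arnt2 window held 0. Of 32851 promoters of the same length, 32.4% held the core and 5.07% the longer form, so a core in 5 of the 6 windows is described only, and the match does not show a binding site.

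In GENCODE M21 (GRCm38, which mm10 names) the members are protein-coding genes on 6 chromosomes: Ahr at chr12:35497974-35535038 on the minus strand, Ahrr at chr13:74211118-74292331 on the minus strand, Arnt at chr3:95434388-95497240 on the plus strand, Arnt2 at chr7:84246278-84410176 on the minus strand, Tiparp at chr3:65528410-65555518 on the plus strand, Cyp1a1 at chr9:57687928-57703824 on the plus strand and Cyp1b1 at chr17:79701537-79715061 on the minus strand. Ahr, Arnt, Arnt2 and Tiparp overlap other annotated genes, of which only 4931440P22Rik had a row in the count tables (at most 24 counts). None of the overlapping genes covers the 3' end of a member, where the reads of this assay are primed.

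Ahr, the receptor itself, was low but present in every library, with 12 to 45 counts in hippocampus and 6 to 45 in cortex. In hippocampus its level was 4.68 CPM in control, 4.81, 4.74 and 1.80 CPM at 3, 5 and 7 days, and 4.56, 2.84, 4.31, 4.81 and 5.56 CPM at 3, 8, 12, 16 and 20 weeks. In cortex it was 3.30 CPM in control, 4.89, 0.795 and 1.29 CPM at 3, 5 and 7 days, and 3.57, 3.47, 5.34, 3.25 and 2.70 CPM at 3, 8, 12, 16 and 20 weeks. The 7-day libraries of both tissues and the 5-day library of cortex stood lowest, and all others lay near or above 2.7 CPM. For these 3 libraries the 95% interval of the ratio to the control of the tissue, from counting error only, excluded 1: the ratio was 0.384 (0.183 to 0.746) at 7 days in hippocampus, and 0.241 (0.0810 to 0.598) at 5 days and 0.390 (0.168 to 0.836) at 7 days in cortex. All 3 ratios set a library of one set of column names against a control of the other. Neighbours in the order of levels did not differ beyond counting error in either tissue.

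Arnt, the general partner of the receptor and of the hypoxia factors, was counted 35 to 129 times per library. In hippocampus it stood at 13.8 CPM in control, 7.78, 6.63 and 11.5 CPM at 3, 5 and 7 days, and 9.12, 12.1, 9.73, 14.7 and 15.8 CPM at 3, 8, 12, 16 and 20 weeks. In cortex it stood at 11.05 CPM in control, 15.4, 5.56 and 5.67 CPM at 3, 5 and 7 days, and 8.07, 11.7, 8.66, 10.8 and 10.5 CPM at 3, 8, 12, 16 and 20 weeks. The 5-day libraries were the lowest of both tissues, while the 3-day library of cortex was the highest of its tissue. The ratio to control had an interval below 1 at 4 of 8 times in hippocampus (3 and 5 days, 3 and 12 weeks) and at 2 of 8 in cortex (5 and 7 days), and above 1 at 1 of 8 in cortex (3 days).

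Arnt2, the relative of Arnt that is strongest in neurons, had 495 to 1527 counts and is the most precisely measured member. In hippocampus its level was 135.7 CPM in control, 112.4, 93.8 and 82.4 CPM at 3, 5 and 7 days, and 121.4, 109.6, 120.2, 140.4 and 111.6 CPM at 3, 8, 12, 16 and 20 weeks. In cortex it was 175.9 CPM in control, 125.4, 117.3 and 111.8 CPM at 3, 5 and 7 days, and 103.9, 156.1, 171.3, 171.3 and 191.4 CPM at 3, 8, 12, 16 and 20 weeks. In cortex the libraries of 3 days to 3 weeks lay between 103.9 and 125.4 CPM. Those of control and 8 to 20 weeks lay between 156.1 and 191.4 CPM. These groups are also the sets of column names, and how many of all genes part in the same way was not counted. In hippocampus the same sets overlapped, at 82.4 to 121.4 CPM in the first and 109.6 to 140.4 CPM in the second. Against the control of the tissue, the lowest ratios were 0.607 (0.548 to 0.673) at 7 days in hippocampus and 0.591 (0.541 to 0.645) at 3 weeks in cortex. The interval lay below 1 at 7 of 8 times in hippocampus, with 16 weeks as the exception, and at 5 of 8 in cortex, where that of 20 weeks lay above 1.

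**Figure D1:**
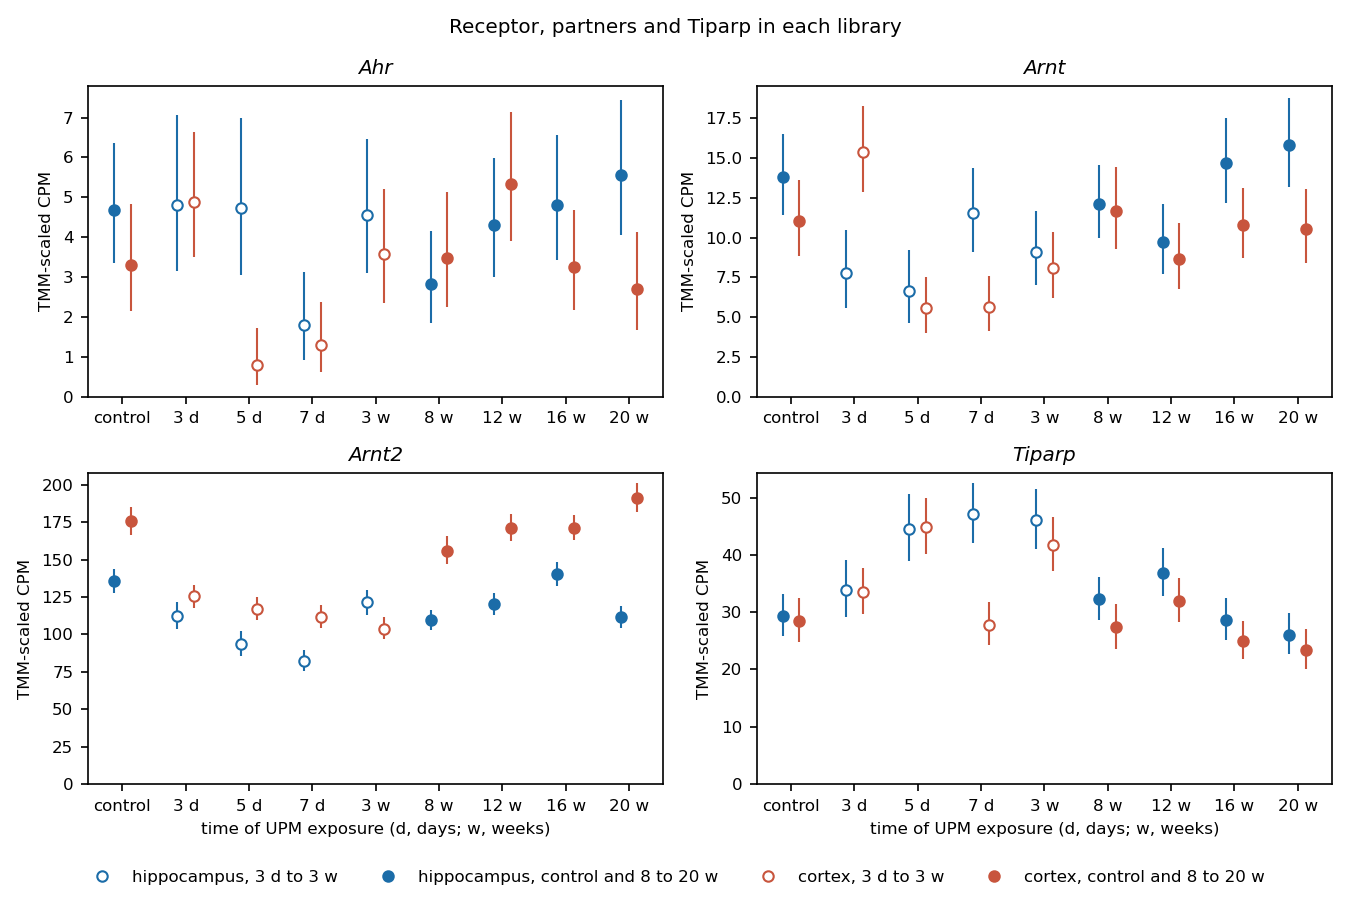
Level of Ahr, Arnt, Arnt2 and Tiparp in each library, in TMM-scaled CPM (y axis), against the time of UPM exposure (x axis), in hippocampus (blue) and cortex (red); bars are 95% Poisson intervals, and open points are the libraries of 3 days to 3 weeks. Arnt2 is lowest at 7 days in hippocampus (82.4 CPM) and at 3 weeks in cortex (103.9 CPM), and Tiparp is highest at 7 days in hippocampus (47.1 CPM) and at 5 days in cortex (44.9 CPM).

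Tiparp, an ADP-ribosyltransferase that is switched on by the receptor and modifies it in return, had 182 to 339 counts. In hippocampus it stood at 29.4 CPM in control, 33.9, 44.5 and 47.1 CPM at 3, 5 and 7 days, and 46.05, 32.3, 36.8, 28.6 and 26.05 CPM at 3, 8, 12, 16 and 20 weeks. In cortex it stood at 28.45 CPM in control, 33.5, 44.9 and 27.8 CPM at 3, 5 and 7 days, and 41.7, 27.3, 31.9, 25.01 and 23.4 CPM at 3, 8, 12, 16 and 20 weeks. The 5-day and 3-week libraries were among the 3 highest of both tissues and the 20-week library was the lowest of both, while 7 days was the highest time in hippocampus and close to control in cortex. The highest ratios to control were 1.60 (1.36 to 1.90) at 7 days, 1.57 (1.32 to 1.86) at 3 weeks and 1.52 (1.26 to 1.82) at 5 days in hippocampus. In cortex they were 1.58 (1.33 to 1.88) at 5 days and 1.47 (1.23 to 1.75) at 3 weeks. The interval lay above 1 at 4 of 8 times in hippocampus, the fourth being 12 weeks, and at 2 of 8 in cortex, and below 1 at none of the 16. Each ratio rests on 1 control library, so these intervals leave out the spread between animals and between library preparations, and all of those above 1 but the 12-week one set a library of one set of column names against a control of the other.

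Cyp1a1, the classical sensitive target of the receptor, was not detected in 16 of the 18 libraries. Its 2 counts were 1 at 16 weeks in hippocampus and 1 at 8 weeks in cortex. Over the 16 UPM libraries this makes 2 counts in 122.0 M, or 0.0164 CPM with an exact 95% Poisson interval of 0.00199 to 0.0592 CPM, and over both controls 0 counts in 15.45 M, where the same interval reaches 0.239 CPM. No difference in Cyp1a1 was detectable at this depth. Ahrr, a repressor that competes with the receptor for Arnt, had 83 counts in all and at most 13 in a library. Its counts in hippocampus were 4 in control, 0, 2 and 4 at 3, 5 and 7 days, and 0, 10, 7, 1 and 8 at 3, 8, 12, 16 and 20 weeks. In cortex they were 7 in control, 6, 5 and 0 at 3, 5 and 7 days, and 1, 9, 4, 13 and 2 at 3, 8, 12, 16 and 20 weeks. The 3 libraries with 0 counts were all among those of 3 days to 3 weeks, whose levels ran from 0 to 0.716 CPM, against 0.120 to 1.46 CPM in control and 8 to 20 weeks, so the sets overlapped. Summed over libraries, Ahrr was 0.590 CPM (0.462 to 0.743) under UPM and 0.712 CPM (0.355 to 1.27) in control. These summed values, like those of Cyp1a1, are relative to total counts without TMM scaling.

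Cyp1b1, which oxidises aromatic hydrocarbons and steroids, had at most 29 counts. Its counts in hippocampus were 11 in control, 3, 20 and 0 at 3, 5 and 7 days, and 16, 29, 14, 6 and 12 at 3, 8, 12, 16 and 20 weeks. In cortex they were 4 in control, 16, 9 and 21 at 3, 5 and 7 days, and 16, 1, 6, 3 and 7 at 3, 8, 12, 16 and 20 weeks. As levels, hippocampus ranged without an order in time, between 0 CPM at 7 days and 3.79 CPM at 5 days. In cortex the libraries of 3 days to 3 weeks stood at 1.19 to 2.71 CPM and those of control and 8 to 20 weeks at 0.139 to 0.900 CPM. These groups are the sets of column names, and how many of all genes part in the same way was not counted. The ratio to control had an interval above 1 at 5 days and 8 weeks in hippocampus and at 3 days, 7 days and 3 weeks in cortex, the highest being 5.33 (1.80 to 21.3) at 7 days in cortex, and below 1 at 7 days in hippocampus, where 0 counts allow a ratio of up to 0.509.

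**Figure D2:**
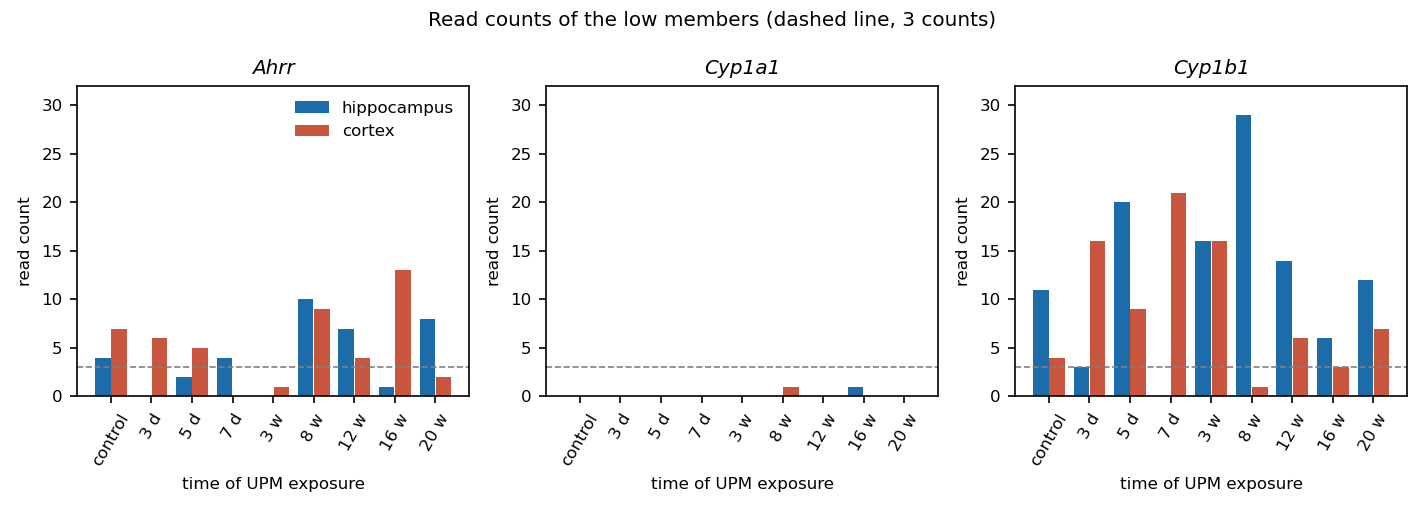
Read counts (y axis) of Ahrr, Cyp1a1 and Cyp1b1 in each library against the time of UPM exposure (x axis), in hippocampus (blue) and cortex (red); the dashed line marks 3 counts. Cyp1a1 has 1 count in 2 libraries and 0 in the other 16, Ahrr reaches 13 counts and Cyp1b1 29.

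Levels of Cyp1b1 are set beside those of marker genes of the cells in which it is known. The 8 fibroblast and meninges markers, all measured and none at 0 in any group, summed to 235.5 CPM in control, 263.9, 245.2 and 77.8 CPM at 3, 5 and 7 days, and 149.2, 402.6, 216.1, 151.9 and 680.7 CPM at 3, 8, 12, 16 and 20 weeks in hippocampus. In cortex the sum was 117.4 CPM in control, 239.7, 103.7 and 290.2 CPM at 3, 5 and 7 days, and 199.6, 92.0, 88.5, 78.7 and 111.8 CPM at 3, 8, 12, 16 and 20 weeks. The 3 cortex libraries with the highest Cyp1b1 (3 and 7 days, 3 weeks) were also the 3 with the highest marker sum, and the hippocampus library without Cyp1b1 had the lowest sum. Other hippocampus libraries went another way. At 20 weeks the sum was the highest of all with 1.48 CPM of Cyp1b1, and at 3 days it was 263.9 CPM with 0.556 CPM of Cyp1b1. The 8 mural cell markers summed to 76.5 to 259.2 CPM in hippocampus, with the highest value at 8 weeks, and to 86.6 to 120.8 CPM in cortex. The 8 brain endothelium markers summed to 143.7 to 235.7 CPM in hippocampus, with 235.7 CPM at 8 weeks and 219.2 CPM at 5 days. In cortex they summed to 146.7 to 201.5 CPM, with 153.3, 151.1 and 146.7 CPM at 3 days, 7 days and 3 weeks. The part of these cells in the Cyp1b1 values was not tested. In bulk tissue, fewer cells of a type and less RNA per cell cannot be told apart.

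**Figure D3:**
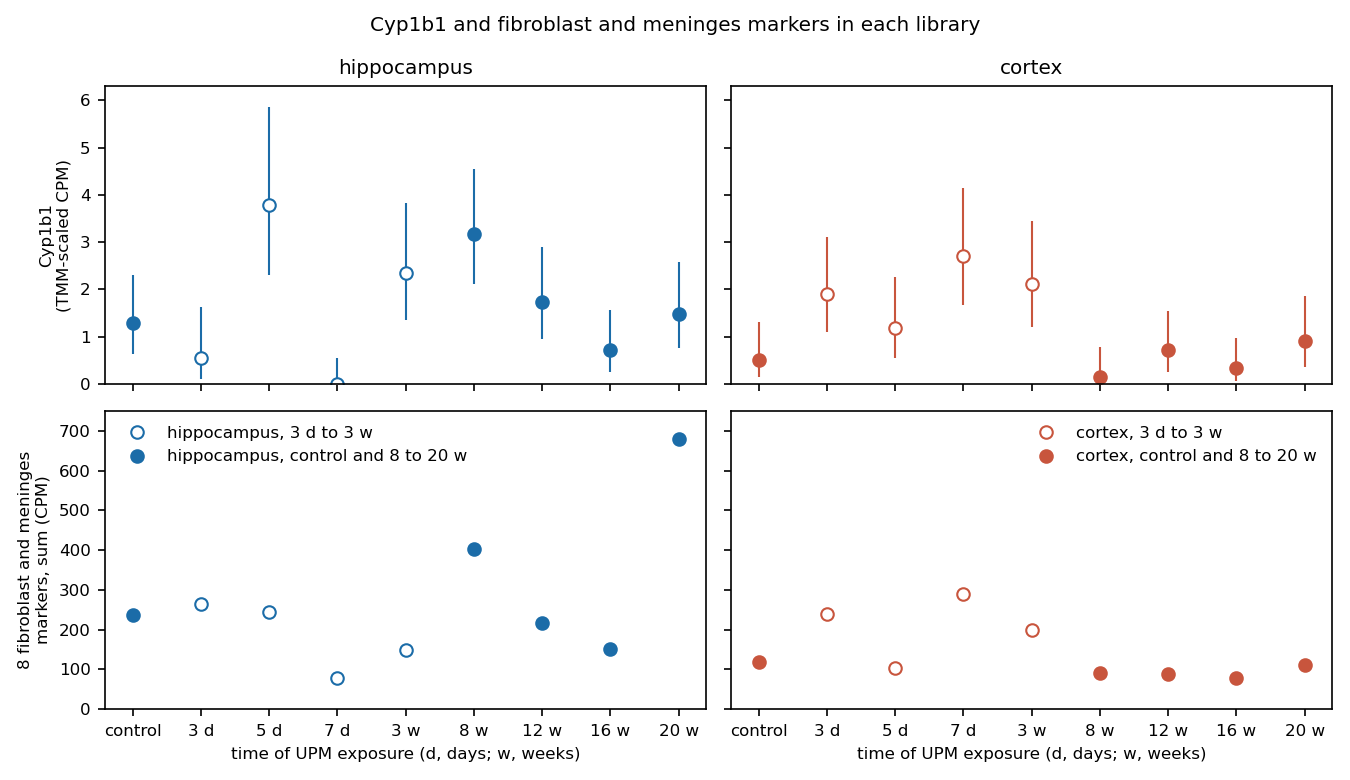
Cyp1b1 level in TMM-scaled CPM with 95% Poisson intervals (upper row) and the summed level of 8 fibroblast and meninges markers in CPM (lower row) in each library against the time of UPM exposure, in hippocampus (left) and cortex (right); open points are the libraries of 3 days to 3 weeks. In cortex the markers are highest at 7 days (290.2 CPM), where Cyp1b1 is also highest (2.71 CPM).

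The comparison of UPM with control asked whether exposure moved the pathway in either tissue. No member passed the test. Genes were tested with the quasi-likelihood test of edgeR with tissue as a covariate, after a filter on low counts, and called at a Benjamini-Hochberg adjusted p under 0.05 over all genes tested. Ahr, Arnt, Arnt2, Tiparp and Cyp1b1 passed the filter in this and every other comparison, and Ahrr and Cyp1a1 in none. Of the 14865 genes tested 0 were called (0%), while 272 had an unadjusted p under 0.05; DESeq2 and limma-voom also called 0, with 364 and 388 genes at that level. Over 16 UPM and 2 control libraries the log2 fold change was -0.29 ± 0.19 for Arnt2 (SE), 0.25 ± 0.23 for Tiparp, -0.27 ± 0.31 for Arnt, -0.11 ± 0.48 for Ahr and 0.77 ± 0.97 for Cyp1b1, each with an adjusted p of 0.98 or 0.99. Mean levels were 127.5 ± 30.4 CPM under UPM and 155.8 ± 28.4 CPM in control for Arnt2 (SD, n = 16 and 2), and 34.4 ± 8.11 CPM under UPM and 28.9 ± 0.648 CPM in control for Tiparp. The contrast rests on 2 control libraries, and the p-values do not show that the levels were alike. For Ahrr an exact two-sided permutation test within tissue gave p = 0.741, where 0.0123 is the smallest p possible. Its means were 0.562 CPM under UPM and 0.679 CPM in control. For Cyp1a1 the same exact permutation test gave p = 1.0. Given 0 counts in both controls and 1 count in 1 UPM library of each tissue, no arrangement of labels gives a smaller difference. This p was therefore fixed, and the test cannot decide whether exposure changed Cyp1a1.

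Inside the set of libraries that holds the controls, UPM of 8 to 20 weeks was compared with control (8 and 2 libraries). Of 14465 genes 0 were called (0%), with 676 at an unadjusted p under 0.05, and none of the members was called. Arnt2 differed by -0.09 ± 0.10 on the log2 scale, Tiparp by 0.01 ± 0.14, Arnt by -0.08 ± 0.18, Ahr by 0.03 ± 0.31 and Cyp1b1 by 0.32 ± 0.66, with adjusted p between 0.995 and 0.999. Tiparp averaged 28.9 ± 4.46 CPM at 8 to 20 weeks and 28.9 ± 0.648 CPM in control (SD, n = 8 and 2). Arnt2 averaged 146.5 ± 30.8 CPM at 8 to 20 weeks and 155.8 ± 28.4 CPM in control. The exact permutation test gave p = 0.76 for Ahrr, with 0.04 as the smallest p possible. For Cyp1a1 the exact permutation test gave p = 1.0. That value was again fixed by 0 counts in both controls and 1 count in 1 UPM library of each tissue, so it decides nothing.

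Long-term UPM was set against short-term UPM to ask whether months of dosing left the pathway at another level than days of dosing did. Arnt2 was higher after long-term exposure, and it was the 1 member of 7 called, where 15.7% of the 13943 genes tested were called (8.39% higher and 7.33% lower). Over both tissues it averaged 139.7 ± 31.0 CPM in long-term libraries and 107.2 ± 16.0 CPM in short-term ones (SD, n = 10 and 6), a log2 fold change of 0.38 ± 0.11 (SE; adjusted p = 0.0301, edgeR). In hippocampus the long-term libraries lay at 109.6 to 140.4 CPM and the short-term ones at 82.4 to 112.4 CPM, and in cortex the long-term ones lay at 103.9 to 191.4 CPM and the short-term ones at 111.8 to 125.4 CPM, so the classes overlapped in both. The call moved with the libraries. Between the long-term and short-term libraries of 1 set (3 weeks against 3 to 7 days) the difference was 0.07 ± 0.17 (adjusted p = 0.999), and without the 3-week libraries, an alternative chosen after the data were seen, it was 0.43 ± 0.09 (adjusted p = 0.00103). It was lost on leaving out any 1 of 9 libraries, those of 5 days, 7 days and 16 weeks in either tissue and of 8, 12 and 20 weeks in cortex, with adjusted p of 0.0502 to 0.0669, and with exposure time as a random block (adjusted p = 0.0595). Hippocampus alone gave 0.34 ± 0.14 (adjusted p = 0.183) and cortex alone 0.43 ± 0.18 (adjusted p = 0.193).

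Tiparp pointed the other way and was not called: 31.9 ± 7.498 CPM in long-term and 38.6 ± 7.89 CPM in short-term libraries, a log2 fold change of -0.28 ± 0.15 (adjusted p = 0.204). Without the 3-week libraries, again chosen after the data were seen, it was called at -0.42 ± 0.12 (adjusted p = 0.0142), whereas within the set of 3 days to 3 weeks it was 0.17 ± 0.21. The 3-week libraries, long-term by class, had 43.9 ± 3.08 CPM of Tiparp and 112.6 ± 12.4 CPM of Arnt2 (SD, n = 2). Tiparp stood nearer to the short-term than to the 8- to 20-week mean in both tissues. For Arnt2 this held in cortex (103.9 CPM, against means of 118.2 and 172.5 CPM). In hippocampus Arnt2 at 3 weeks (121.4 CPM) lay nearer to the 8- to 20-week mean (120.4 CPM) than to the short-term mean (96.2 CPM). Arnt differed by 0.32 ± 0.22 (adjusted p = 0.330) and passed the threshold without the 3-day library of cortex (0.63, adjusted p = 0.0326). Ahr differed by 0.43 ± 0.35 and Cyp1b1 by -0.43 ± 0.62. For Ahrr the means were 0.663 CPM in long-term and 0.393 CPM in short-term libraries (exact two-sided permutation test within tissue, p = 0.291). The smallest p possible for Ahrr in this exact permutation test is 0.000319. For Cyp1a1 the means were 0.0259 CPM in long-term and 0 CPM in short-term libraries (exact two-sided permutation test within tissue, p = 0.531). With 1 count in 1 library of each tissue, Cyp1a1 cannot reach so small a p, and its test cannot decide whether the classes differ. The list kept as a sign of RNA quality, 6 of 6 measured, moved with the same classes, and its genes moved in opposite directions. Its sum, 93510 to 214500 CPM in long-term and 157100 to 207500 CPM in short-term libraries, is mostly Rn45s, which was lower after long-term exposure (-0.60, adjusted p = 0.0390). The other 5, the long noncoding RNAs Meg3, Miat, Snhg11, Malat1 and Neat1, were all higher, by 1.56 to 2.35 on the log2 scale (adjusted p of 0.00456 to 0.00943), and summed to 2989 to 26780 CPM in long-term and 3595 to 6691 CPM in short-term libraries. By set the 5 summed to 2989 to 6691 CPM at 3 days to 3 weeks and 13810 to 26800 CPM in control and 8 to 20 weeks. Within the set of 3 days to 3 weeks they differed by -0.53 to 0.07 between long-term and short-term libraries. Astrocyte markers, 6 of 6 measured and none at 0, summed to 3392 to 4444 CPM in long-term and 4505 to 4837 CPM in short-term libraries of hippocampus. In cortex they summed to 3356 to 3731 CPM in long-term and 3811 to 4220 CPM in short-term libraries. Of the 6, Slc1a3 was called (-0.37, adjusted p = 0.00538). The part of either list in the values of Arnt2 and Tiparp was not tested.

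Whether the change from short-term to long-term exposure differed between the tissues was tested as an interaction, hippocampus minus cortex. None of the 14427 genes tested was called (0%), with 1124 at an unadjusted p under 0.05, while DESeq2 called 25, none of them a member. The difference of changes was 1.61 ± 1.23 for Cyp1b1 (adjusted p = 0.808), whose long-term change was 0.42 ± 0.94 in hippocampus and -1.197 ± 0.67 in cortex. With limma-voom it was 3.31 (adjusted p = 0.578), and on leaving out each library in turn it ran from 0.999 to 3.994 without being called. The difference was -0.10 ± 0.23 for Arnt2, -0.06 ± 0.30 for Tiparp, 0.34 ± 0.44 for Arnt and -0.41 ± 0.69 for Ahr, with adjusted p of 0.91 or more.

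**Figure D4:**
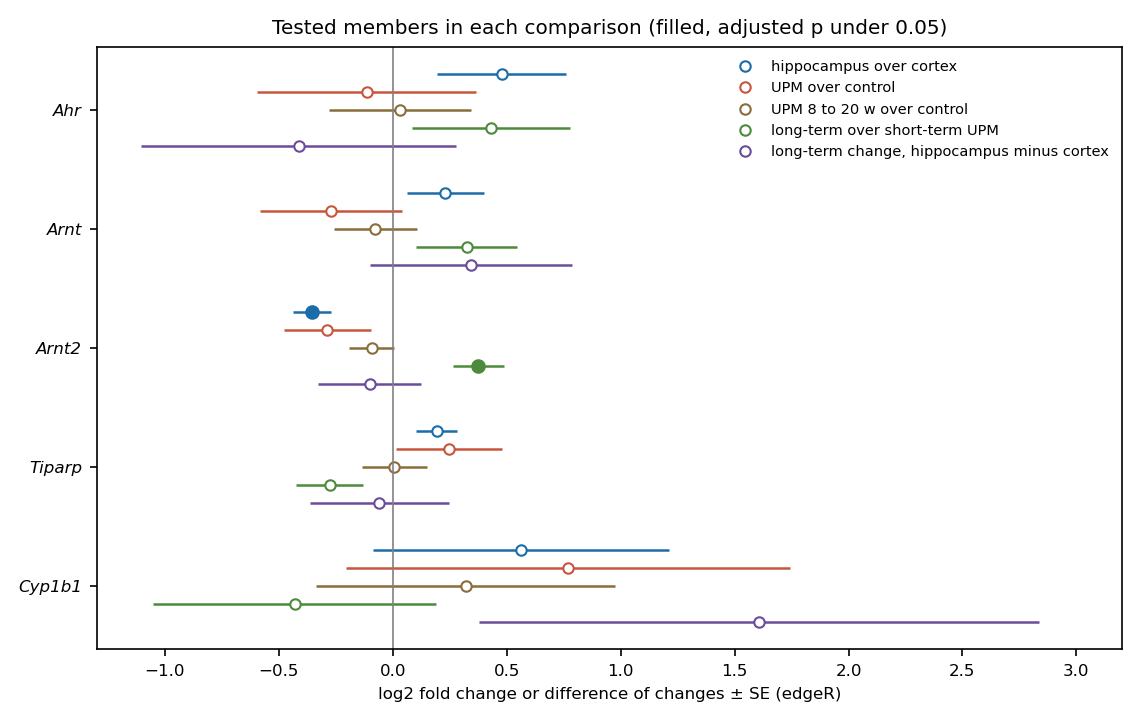
Log2 fold change, or difference of changes, with its standard error (x axis) for the 5 members that passed the filter (rows) in each of the 5 comparisons (colours); filled points have an adjusted p under 0.05 in edgeR. Only Arnt2 has filled points, at -0.35 for hippocampus over cortex and at 0.38 for long-term over short-term UPM.

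Between the tissues, with exposure time as a factor, Arnt2 was lower in hippocampus. It was the 1 member of 7 called, where 16.9% of the 14865 genes tested were called (7.6% higher and 9.26% lower). Its levels had a minimum, median and maximum of 82.4, 112.4 and 140.4 CPM in hippocampus and 103.9, 156.1 and 191.4 CPM in cortex, and hippocampus was lower at 8 of 9 times, with 3 weeks as the exception. The log2 fold change was -0.35 ± 0.08 (SE; adjusted p = 0.00688), and it stayed called on leaving out each library in turn (-0.43 to -0.30). In the set of control and 8 to 20 weeks it was -0.49 ± 0.08 (adjusted p = 0.000846) and in the set of 3 days to 3 weeks -0.16 ± 0.14 (adjusted p = 0.643), and without the time factor -0.36 ± 0.13 (adjusted p = 0.0711). The 6 neuronal markers, none at 0, summed to 3771 to 4873 CPM in hippocampus and 5569 to 5915 CPM in cortex in the first of these sets, and to 4186 to 5331 CPM in hippocampus and 4790 to 5928 CPM in cortex in the second. The part of neuronal RNA in the Arnt2 difference was not tested.

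The other members were not called between the tissues. Tiparp was 0.19 ± 0.09 higher on the log2 scale (adjusted p = 0.165, edgeR) and higher in hippocampus at 8 of 9 times, with a minimum, median and maximum of 26.05, 33.9 and 47.1 CPM in hippocampus and 23.4, 28.45 and 44.9 CPM in cortex. Arnt differed by 0.23 ± 0.17 (adjusted p = 0.416), also higher at 8 of 9 times, and Ahr by 0.48 ± 0.28 (adjusted p = 0.289), higher at 6 of 9. Cyp1b1 differed by 0.56 ± 0.65 (adjusted p = 0.635). In the set of control and 8 to 20 weeks it was higher in hippocampus at 5 of 5 times, by 1.59 ± 0.53 on the log2 scale (adjusted p = 0.0532), and in the other set at 2 of 4 (-0.80 ± 1.14). Ahrr averaged 0.501 CPM in hippocampus and 0.649 CPM in cortex (exact paired permutation test, two-sided, p = 0.523). The smallest p possible for Ahrr in this exact permutation test is 0.00391. Cyp1a1 averaged 0.0134 CPM in hippocampus and 0.0154 CPM in cortex (exact paired permutation test, two-sided, p = 1.0). With 1 count in 1 library of each tissue, Cyp1a1 cannot reach so small a p, and its test cannot decide whether the tissues differ.

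The genes around the members were read from 4 lists. Of the receptor complex and its cofactors, 10 of 10 were tested. Against cortex, 1 was higher in hippocampus and 0 lower, where 16.9% of all genes were called: the coactivator Ncoa1 (0.40 ± 0.07, adjusted p = 0.000909). In long-term against short-term libraries 1 was higher and 3 lower, where 8.39% of all genes were higher and 7.33% lower. The coactivator Ncoa3 (0.51 ± 0.16, adjusted p = 0.0336) was higher. Cul4b, the scaffold of a ubiquitin ligase with which the receptor works (-0.48 ± 0.13, adjusted p = 0.0229), Nedd8, which activates such ligases (-0.52 ± 0.15, adjusted p = 0.0252), and Ptges3, the p23 chaperone of the receptor complex (-0.34 ± 0.11, adjusted p = 0.0400), were lower. The median log2 change of the list was -0.21 long-term over short-term, against 0.005 over all genes, and 0.03 between the tissues, against -0.005 over all genes.

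Of 13 target enzymes and regulators measured, 10 were tested between the tissues and 7 between long-term and short-term exposure. Ephx1, the microsomal epoxide hydrolase that acts on oxidised hydrocarbons after the P450 enzymes, was higher in hippocampus (0.58 ± 0.16, adjusted p = 0.0186). It was the 1 call among the 10 tested there, where 16.9% of all genes were called. Gsta3, a glutathione transferase, was higher after long-term exposure (2.60 ± 0.67, adjusted p = 0.0163), with 6 to 67 counts in long-term and 0 to 10 counts in short-term libraries. It was the 1 call among the 7 tested there, where 15.7% of all genes were called. It passed the filter through the long-term libraries, where it is high, so its call is described only. Ugt1a6a had 0 counts in all 18 libraries and Gsta1 at most 3 in any. Of 13 enzymes and transporters that form or carry ligands of the receptor, such as the kynurenines, 10 were tested between the tissues. Among these 2 were called, where 16.9% of all genes were called. Tdo2, which starts the kynurenine route from tryptophan, was higher in hippocampus (3.05 ± 0.41, adjusted p = 4.33e-05), with 7 to 56 counts in hippocampus and 1 to 18 in cortex. Ido1, which catalyses the same step, had 0, 1 and 3 counts as minimum, median and maximum in hippocampus and 0, 2 and 33 in cortex. It passed the filter through cortex, where it is high, and its call there (-2.32 ± 0.74, adjusted p = 0.0423) was lost with no filter (0.0567). None of the 6 tested was called between long-term and short-term exposure, where 15.7% of all genes were called. Ccbl1 (-0.34 ± 0.20) and Tdo2 (-0.64 ± 0.45) had the smallest p of the list there.

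The fourth list, of bHLH-PAS relatives, holds other genes of the family to which Ahr and Arnt belong, and the related period genes Per1, Per2 and Per3. Of its 15 measured genes 13 were tested. Between the tissues 2 of the 13 were higher in hippocampus and 1 lower, where 7.6% of all genes were higher and 9.26% lower. Epas1, the hypoxia factor HIF-2 alpha (0.46 ± 0.10, adjusted p = 0.00291), and Npas3 (0.35 ± 0.10, adjusted p = 0.0281) were higher. Npas2, a partner of the clock factor Bmal1 (-0.88 ± 0.20, adjusted p = 0.00532), was lower. After long-term exposure 4 of the 13 were higher and 0 lower, where 8.39% of all genes were higher and 7.33% lower. These were the Bmal1 relative Arntl2 (1.60 ± 0.38, adjusted p = 0.0115) and the period genes Per3 (0.82 ± 0.24, adjusted p = 0.0254), Per2 (0.56 ± 0.16, adjusted p = 0.0232) and Per1 (0.40 ± 0.13, adjusted p = 0.0459). With exposure time as a random block Per2 alone of the 4 stayed called, and the adjusted p was 0.0547 for Arntl2, 0.0645 for Per3 and 0.0586 for Per1. Arntl2 had 1.77 to 9.30 CPM in long-term and 0.662 to 3.09 CPM in short-term libraries. The time of day at which tissue was taken is not given in the sources used here. In UPM against control, in 8 to 20 weeks against control and in the interaction, 0 genes of the 4 lists were called. The smallest p among them in UPM against control belonged to Ncoa2 (0.29 ± 0.20) and Cul4b (0.36 ± 0.25), Nfe2l2 (0.36 ± 0.20) and Nqo1 (1.03 ± 0.66), Ido1 (2.61 ± 1.64) and Kmo (2.05 ± 1.68), and Per1 (-0.42 ± 0.22) and Per2 (-0.42 ± 0.28), all with an adjusted p of 0.98. At 8 to 20 weeks against control it belonged to Hsp90aa1 (-0.16 ± 0.09) and Ncoa2 (0.17 ± 0.14), Por (0.27 ± 0.10) and Cyp2s1 (1.47 ± 0.56), Ido1 (2.93 ± 1.23) and Haao (1.38 ± 1.10), and Per1 (-0.25 ± 0.16) and Npas3 (0.20 ± 0.14), all with an adjusted p of 0.994. In the interaction it belonged to Ncoa2 (-0.56 ± 0.22) and Ncoa1 (-0.32 ± 0.15), Por (-0.33 ± 0.16) and Ephx1 (0.55 ± 0.39), Slc7a5 (-1.10 ± 0.54) and Afmid (0.76 ± 0.56), and Npas2 (1.06 ± 0.37) and Npas4 (2.10 ± 0.80), with adjusted p of 0.468 to 0.803. The median log2 change of the target enzymes was 0.37 for UPM over control (8 of 10 above 0) and 0.37 for 8 to 20 weeks over control inside 1 set (9 of 9 above 0, 0 called), against 0.02 and 0.008 over all genes. Both comparisons share the 2 control libraries. It was 0.10 for long-term over short-term UPM and -0.14 for the same within the set of 3 days to 3 weeks, 0.33 for hippocampus over cortex, and -0.33 for the interaction, which became 0.10 without the 3-week libraries. For UPM over control, 8 to 20 weeks over control, long-term over short-term UPM, hippocampus over cortex and the interaction, the median of the ligand-forming list was 0.21, 0.04, 0.005, -0.10 and -0.05, and that of the bHLH-PAS list -0.16, -0.03, 0.02, -0.08 and -0.10. Over all genes it was 0.02, 0.008, 0.005, -0.005 and 0.02 in that order. Within the set of 3 days to 3 weeks, long-term over short-term UPM gave -0.49 for the ligand-forming list (7 tested) and 0.12 for the bHLH-PAS list (12 tested), against -0.01 over all genes.

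The calls of the lists were recomputed within a set and without single libraries. In long-term against short-term exposure, within the set of 3 days to 3 weeks 0 of the 9 calls was made and Nedd8 (0.04), Ptges3 (0.07) and Per3 (-0.24) turned sign. Ptges3 lost its call on leaving out any 1 of 14 libraries, all but those of 3 weeks (adjusted p of up to 0.0896), Per1 without any 1 of 11, those of 3 and 7 days and of 8, 12 and 16 weeks in either tissue and of 5 days in cortex (up to 0.104), and Ncoa3 without any 1 of 9, those of 5 days, 8 weeks and 16 weeks in either tissue, of 12 weeks in hippocampus and of 7 days and 20 weeks in cortex (up to 0.0861). With exposure time as a random block, Ncoa3 (adjusted p = 0.0600) and Gsta3 (0.0527) were no longer called either. In either tissue alone 0 of the 9 was called (adjusted p of 0.0977 to 0.351). Scaled by total counts alone, Ptges3 (0.107) and Cul4b (0.0529) lost their calls, and with no filter on low counts Ptges3 did (0.0518). Cul4b lost it without the 3-day library of cortex (adjusted p = 0.0540), Nedd8 without the 5-day library of cortex (0.0737), Per2 without the 5-day library of hippocampus (0.0542) or cortex (0.0601), and Per3 without the 5-day library of hippocampus (0.0583) or the 7-day library of cortex (0.0560). Between the tissues, Ido1 lost its call without any 1 of 14 libraries, all but those of 3 and 7 days (up to 0.201), Npas3 without any 1 of 10, the control and those of 5 days and of 3, 8 and 20 weeks in either tissue (up to 0.0794), and Ephx1 without the 8- or 20-week library of either tissue (0.0503 to 0.0678). Ncoa1, Epas1, Npas2 and Tdo2 between the tissues, and Gsta3 and Arntl2 between exposure classes, stayed called without each library in turn. For Gsta3 this adds no support, since it entered the test through the long-term libraries. Tdo2 was low in cortex and Arntl2 in short-term libraries. Whether they would have passed the filter without the group where they are high was not tested, so their calls are described only. Between the tissues, Ephx1 (adjusted p = 0.0725) was not called in the fit without exposure time as a block. In the set of 3 days to 3 weeks Npas2 (adjusted p = 0.194), Npas3 (0.316) and Ephx1 (0.423) were not called, nor Epas1 in the set of control and 8 to 20 weeks (0.0609).

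The genes whose levels ran most like those of a member were sought for the 3 members with a mean of at least 50 counts, over the 18 libraries and 10321 genes, after the mean of each tissue and set was subtracted. For Arnt they were Med24, a Mediator subunit (r = 0.89), Ralgapa1, a regulator of Ral GTPases (r = 0.86), and the cyclin Ccnl1 (r = 0.84). For Arnt2 they were Serpini1, the protease inhibitor neuroserpin (r = 0.84), Syt4, a synaptotagmin (r = 0.80), and Creld1 (r = 0.80), and without the subtraction the first 2 fell to 0.09 and 0.06. For Tiparp they were Lrrc49 (r = 0.84), Fth1, the ferritin heavy chain (r = 0.84), and Thrsp (r = 0.82), with 0.41, 0.92 and 0.85 without it. These are the highest of many correlations over libraries that share depth and preparation, and they are a description without a test.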

How the data were processed

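The deposited files hold unnormalised counts of single-end 75 bp 3' reads for each gene symbol. The authors' tools were Bowtie2, bedtools and edgeR, and the build mm10, per the submitters' processing notes. Versions, strand setting and annotation are not given in the sources used here. Counts of repeated symbols were summed (23282 lines, 23238 symbols), and 27 symbols turned into dates in 2 files were restored. All pairs of libraries of the same tissue differed beyond counting noise (chi-squared over its degrees of freedom at least 4.86). Members, lists and the rule for naming genes (genes of a list past the threshold, otherwise the 2 with the smallest p) were chosen with earlier results of these data known. Some genes first listed are not reported here, and the counts and medians of the lists leave them out.

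Counts were TMM-scaled, filtered with filterByExpr and tested with edgeR 4.0.16 in R 4.3.3 (quasi-likelihood F test, Benjamini-Hochberg over all genes), after the procedure was tested on simulated data. Standard errors are those implied by the F statistic. Covariates were tissue, or exposure time between the tissues. Ahrr and Cyp1a1, below the filter, had exact permutation tests on CPM. Intervals of counts and floors are at 95% and cover counting error only. Alternatives were DESeq2 1.42.0, limma-voom 3.58.1, other scalings and filters, a replicate block, subsets and leaving out each library. Same-time libraries of both tissues deviated with r of -0.16 to 0.19. The fit between the tissues paired them through exposure time. All other fits counted the 2 tissues of a time as separate libraries. Between exposure classes limma-voom called 2233 genes, and 1466 with exposure time as a random block.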

Additional observations from a re-analysis of the deposited data

Results flagged for a closer look

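Of 14 groups of members' levels examined for a library far from the others, 2 stood out. A chance rate of about 1 in 20 groups cannot be set against them, since 1 count among 0 counts always stands out. Both are Cyp1a1 in long-term UPM: 0.120 CPM at 16 weeks in hippocampus and 0.139 CPM at 8 weeks in cortex, against 0 in the other 4 long-term libraries of each tissue. Each value is 1 read count, below the floor of 3 counts.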

How the results depend on the processing

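The call of Arnt2 between the tissues was made in every alternative except in the set of 3 days to 3 weeks and without the replicate block of exposure time, where 0 members were called. All genes called were 2507 as reported, 1629 without the block and 656 in that set. In long-term against short-term UPM, 1 member was called as reported, 0 with the replicate block, in the set of 3 days to 3 weeks, in hippocampus alone and in cortex alone, and 2 without the 3-week libraries (chosen after the data were seen); leaving out 1 library gave 0 to 2. All genes called there were 2192, against 0 in the set of 3 days to 3 weeks, 38 in hippocampus, 0 in cortex, 4509 without the 3-week libraries and 1286 to 3537 on leaving out 1 library (1286 without 5 days in cortex, 1461 without 16 weeks in hippocampus, 3537 without 3 weeks in cortex). The interaction had 0 calls, 25 with DESeq2 and 4 without the 3-week libraries. The comparison of 8 to 20 weeks with control had 0, and 0 to 4 on leaving out 1 library (1 without the hippocampus control, 4 without the cortex control). The replicate block changed no other call of a member.

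Scaling by total counts alone moved the split of calls to 1446 higher and 980 lower between the tissues (1130 and 1377 with TMM), and to 2093 higher and 423 lower between exposure classes (1170 and 1022), where it shifted the median of all genes to 0.15 on the log2 scale. Arnt2 stayed called (-0.29 and 0.53).

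Among the members, signs turned only for values that were not called. These were Cyp1b1 between the tissues in the set of 3 days to 3 weeks (-0.80); Ahr against control at 8 to 20 weeks with limma-voom (-0.027 with and without the block) and on leaving out 1 library (-0.10 to 0.16); Tiparp there with DESeq2 (-0.001), RLE factors (-0.00), total counts (-0.006) and on leaving out 1 library (-0.079 to 0.071). Between exposure classes they were Arnt (-0.051) and Tiparp (0.17) in the set of 3 days to 3 weeks, and Cyp1b1 with limma-voom (0.12), with the block (0.13), in that set (0.41) and in hippocampus (0.42). In the interaction they were Tiparp with total counts (0.051), and on leaving out 1 library Arnt (-0.32 to 0.61), Arnt2 (-0.219 to 0.028) and Tiparp (-0.26 to 0.09). Of the listed genes, Nedd8 (0.044), Ptges3 (0.069) and Per3 (-0.239) turned sign between exposure classes in the set of 3 days to 3 weeks, and Hsp90aa1 without the hippocampus control (-0.351 to 0.028 over libraries left out), and Ncoa2 (-0.095 to 0.45) and Per1 (-0.515 to 0.03) without the cortex control, turned sign at 8 to 20 weeks against control. The causes were not tested. Depth limits Ahr, Ahrr, Cyp1a1 and Cyp1b1, and the single control library per tissue limits every comparison with control.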
